A study of Mus musculus with 9 samples.

Results

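The Notch genes described here are Jag1, Jag2 and Dll1 (ligands), Notch1, Notch2 and Notch3 (receptors) and Hes1, Hey1, Hey2 and Nrarp (targets of the pathway), taken by gene symbol. Of these 10 genes, 7 had a row among the 16428 genes of the deposited table, and 6 of those passed a filter on low values. Nrarp had a row and did not pass the filter, and Jag2, Hey1 and Hey2 were not analysed here. The group was chosen by the RNA level of Jag1, which was lower in inhibitor-treated than in untreated cells, with the other genes added by name, so the Jag1 values are given as a description without a test, and so are the values of the other genes in that comparison.

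The 9 RNA libraries came from mouse embryonic fibroblasts with the genotype CARM1f/f ER-Cre, in which both copies of Carm1 carry sites that the Cre recombinase cuts and the recombinase is fused to an estrogen receptor domain. All 3 groups share this genotype. WT libraries (n = 3) came from untreated cells. KO libraries (n = 3) came from cells given 2 uM 4-OHT (4-hydroxytamoxifen, which activates the recombinase) for 6 days, and CARM1i libraries (n = 3) from cells given 1 uM of the CARM1 inhibitor TP-064 for 6 days. No group is labelled as vehicle or as 4-OHT without a floxed gene, so 4-OHT and the deletion cannot be told apart. Nor can the inhibitor and its vehicle. Whether the replicates of a group were separate cultures is not in the labels, so the p-values reflect how far these libraries differ, and that spread may be technical.

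Notch is a signalling system between touching cells. A ligand of the Jagged or Delta family on one cell binds a Notch receptor on its neighbour, the metalloprotease ADAM10 and then the gamma-secretase complex cut the receptor, and the freed intracellular part enters the nucleus. There it joins the DNA-binding protein RBPJ and a Mastermind coactivator, which recruits the acetyltransferases p300 and CBP, and switches on target genes such as those of the HES and HEY repressors. In fibroblasts and other mesenchymal cells the pathway is known for its part in differentiation and in contacts with blood vessel cells.

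Summed over the genes of the deposited table, libraries held 28657018 to 35842771 reads. Carm1 itself measured 1079 to 1143 normalized counts in WT, 711 to 794 in KO and 986 to 1112 in CARM1i libraries, counted over the whole gene, which does not separate the deleted exons from the rest. CARM1i replicate 3 stood apart from its group: a chi-square of its reads against those of the other 2 libraries was 7.91 and 8.47 per gene, beside 2.47 to 5.54 for the other pairs within groups, so values without it are given where they change a result. Of 12 fibroblast markers 11 passed the filter, and Lum, at 2.02 to 11.8 normalized counts, did not. In KO 8 of the 11 fell and 2 rose in limma's test, beside 20.5% lower and 21.4% higher of all genes tested. Col3a1 stood at 41.4%, Col1a1 at 52.1%, Pdgfra at 62.3% and Fn1 at 131.8% of the WT mean. In CARM1i 5 fell and 3 rose, beside 8.59% lower and 10.5% higher of all genes. The summed level of the 12, to which Fn1 adds most, ran from 391760 to 401887 in WT, 361081 to 379721 in KO and 368714 to 398606 in CARM1i libraries. Of 6 endothelial markers with a row, Pecam1 (at most 14.3 normalized counts in any library) and Esam (at most 8.61) were below the filter, Cdh5 (19.1 to 42.3) and Kdr (14.7 to 35.7) were low, and Egfl7 (125.3 to 206.7) and Tek (178.5 to 265.8) were higher. The 6 summed to 392.5 to 454.8 in WT, 467.4 to 530.2 in KO and 442.2 to 457.6 in CARM1i libraries, and Egfl7 was called higher in KO (127.9% of WT) and in CARM1i (136.8%), calls that ended without WT replicate 2 and, in KO, also without KO replicate 2. In KO the keratin gene Krt18, the only epithelial marker analysed, was called higher at 294.5% of WT. Of 4 myeloid genes tested, the macrophage gene Cd68 was called higher at 202.3% and Cd14 lower at 74.1%. Csf1r (113.5%) and Mrc1 (124.4%) were not called, and the KO and WT libraries of Cd68 overlapped. Of 4 neural genes, Tubb3 (32.9%), Nes (51.1%) and Ncam1 (80.05%) were called lower and Map2 (98.5%) was not called. Calls are at an adjusted p of 0.05 in limma, passed by 41.9% of all genes in KO. In CARM1i, where 19.1% of all genes passed, Nes passed at 77.5% and Ncam1 at 80.7% of WT. Krt18, Cd68 and Tubb3 (103.3%, 118.0% and 72.2%) did not, nor did Cd14, Csf1r, Mrc1 or Map2. Each of 10 mitosis genes fell in both treatments in limma's test, beside 20.5% of all genes in KO and 8.59% in CARM1i. The summed level of the 10 ran from 36324 to 37721 in WT, 14906 to 15390 in KO and 24663 to 26584 in CARM1i libraries. Many of these markers moved with the groups compared below, and the part of the markers in the Notch gene values was not tested.

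The start regions of the 2 measured ligand genes are shown because these genes differed from WT in opposite directions in the treated cells. They are the bases upstream of both the RefSeq start site and the GENCODE gene, in RefSeq's sequence of build GRCm38.p6, minus strand, written 5′ to 3′ with CG dinucleotides in capitals. Jag1 is at chr2:137116645-137116770 and Dll1 at chr17:15376933-15377182.
Jag1: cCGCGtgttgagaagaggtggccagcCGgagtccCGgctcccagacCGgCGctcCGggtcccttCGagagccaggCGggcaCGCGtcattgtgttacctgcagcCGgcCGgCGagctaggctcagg
Dll1: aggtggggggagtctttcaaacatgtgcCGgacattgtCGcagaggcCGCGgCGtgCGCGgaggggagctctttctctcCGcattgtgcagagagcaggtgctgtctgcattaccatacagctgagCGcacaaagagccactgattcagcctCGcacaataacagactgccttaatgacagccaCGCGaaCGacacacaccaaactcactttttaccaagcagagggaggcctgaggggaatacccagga
The Jag1 stretch holds 14 CG dinucleotides in 126 bases (11.1 per 100 bases) and the Dll1 stretch 13 in 250 (5.2 per 100), beside a median of 2.4 per 100 over the 250 upstream bases of 32851 RefSeq start regions. Of the 7 genes with a row, 6 matched a RefSeq start region; the other is Hes1. The core letters bound by RBPJ, TGGGAA on either strand, were not found in the 250 upstream bases of these 6 genes (Dll1 has 2 windows), where 21.6% of all such windows hold them. The letters TGACG, a partial site of the CREB family, occurred once each in the windows of Jag1, Nrarp and Notch3, beside 17.8% of all windows. A match or its absence describes letters in this window only.

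The first comparison asked how the Notch genes stand in KO cells against WT. Jag1 was at less than 50% of its WT level, the other measured ligand gene Dll1 rose about 2-fold, the receptor genes Notch1, Notch2 and Notch3 rose by smaller amounts, and the target gene Hes1 fell slightly. Jag1 apart, 5 of the 5 genes tested passed an adjusted p of 0.05 in limma's test, 4 higher and 1 lower, in a comparison where 41.9% of all 14560 genes tested passed, 21.4% higher and 20.5% lower. The KO and WT libraries did not overlap for these 5 genes, beside 52.6% of all genes. In bulk RNA, fewer cells that express a gene and less RNA per cell cannot be told apart.

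Jag1 encodes the ligand Jagged1 (ENSMUSG00000027276.7; mm10, chromosome 2, 137081456 to 137116644, minus strand, protein coding). Its normalized counts were 298.9, 317.1 and 367.8 in replicates 1, 2 and 3 of WT, 182.6, 139.1 and 158.3 in KO and 167.0, 153.4 and 142.1 in CARM1i. Each of the 6 treated libraries was below each WT library, and the KO and CARM1i ranges overlapped. The KO mean was 160.0 ± 21.8 (SD, n = 3), 48.8% of the WT mean of 327.9 ± 35.7, and the CARM1i mean of 154.2 ± 12.5 was 47.0% of it. On the scale of log2(value + 1) the fitted differences from WT were -1.03 ± 0.12 (SE) for KO and -1.08 ± 0.12 for CARM1i. Both used the same WT libraries, so they are given side by side. The direct difference, CARM1i minus KO, was -0.05 ± 0.12, with a 95% interval of -0.30 to 0.21. That interval uses the CARM1i values by which Jag1 was chosen, so it is a description and not a test.

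Dll1 encodes the ligand Delta-like 1 (ENSMUSG00000014773.13; chromosome 17, 15367354 to 15376872, minus strand). It measured 87.9, 83.2 and 74.85 normalized counts in WT, 163.2, 201.6 and 145.9 in KO and 116.4, 122.0 and 118.6 in CARM1i. The groups did not overlap, with WT lowest, CARM1i between and KO highest. In KO it rose by 1.04 ± 0.14 on the log2 scale (limma adjusted p = 1.043e-05), from 82.0 ± 6.59 to 170.2 ± 28.5. That call held in each of the 20 alternative fits, where the estimate ran from 0.91 to 1.14.

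**Figure D1:**
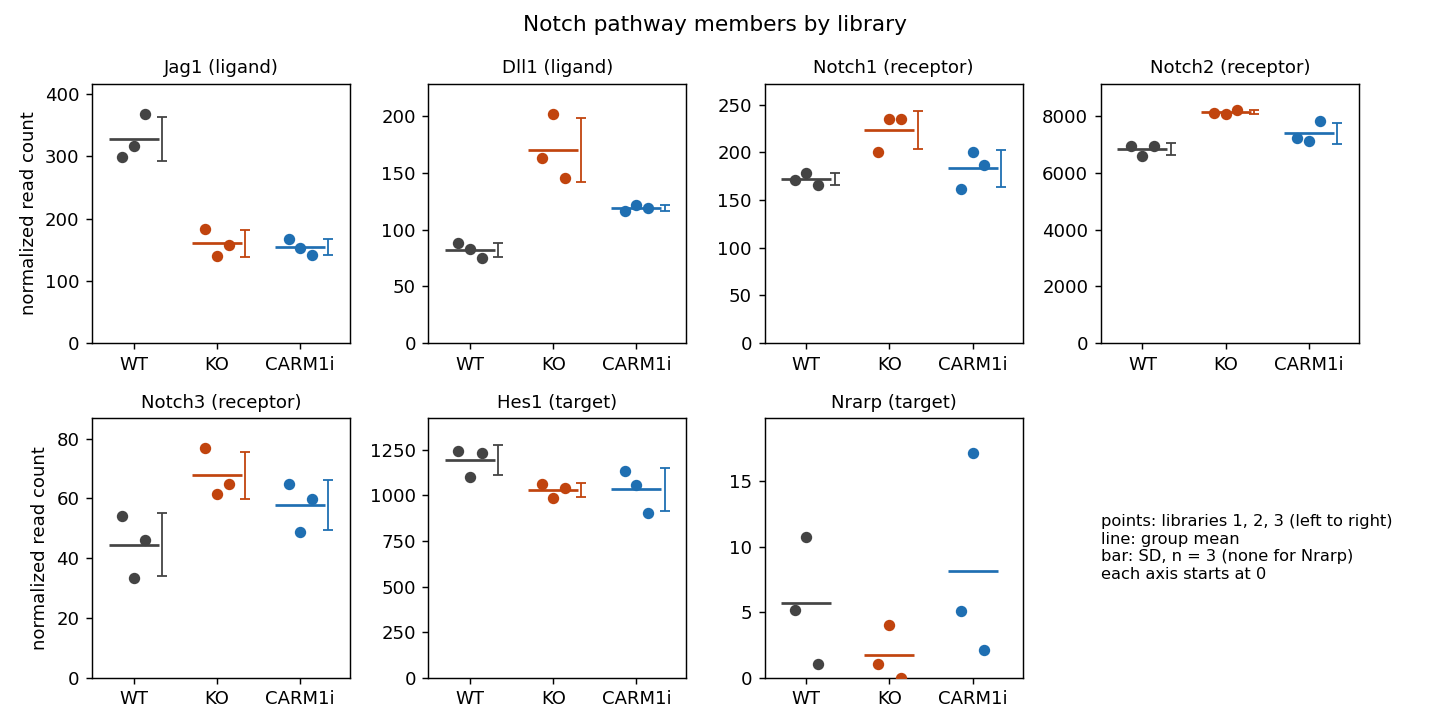
Normalized read counts (vertical axes, each from 0) of the 7 Notch genes in the 3 WT, 3 KO and 3 CARM1i libraries; points are libraries, lines are group means and bars are SD (n = 3, not drawn for Nrarp). Jag1 is lower in the 6 treated libraries than in WT, and Dll1 is lowest in WT and highest in KO.

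The balance of the 2 ligand RNAs per kb reversed in KO. Per kb of annotated exon (5827 bases for Jag1, 4219 for Dll1), Jag1 stood at 56.3 ± 6.13 normalized reads in WT and Dll1 at 19.4 ± 1.56. In KO Jag1 stood at 27.5 ± 3.74 and Dll1 at 40.35 ± 6.755. The ratio of Jag1 to Dll1 per kb was 2.46, 2.76 and 3.56 in the WT libraries, 0.81, 0.50 and 0.79 in KO and 1.04, 0.91 and 0.87 in CARM1i. Per kb, Jag1 was thus the higher ligand RNA in each WT library and Dll1 in each KO library, while in CARM1i their ranges overlapped. This order in KO rests on the exon lengths used. Before division by length, Jag1 was above Dll1 in KO replicates 1 (182.6 beside 163.2) and 3 (158.3 beside 145.9). It was below Dll1 in KO replicate 2 (139.1 beside 201.6) and above it in each CARM1i library. The sum of both ligands per kb was 72.1 to 80.9 in WT, 61.8 to 71.7 in KO and 52.5 to 56.3 in CARM1i, with no overlap between groups. These ratios rest on the values that chose Jag1 and are given without a test.

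**Figure D2:**
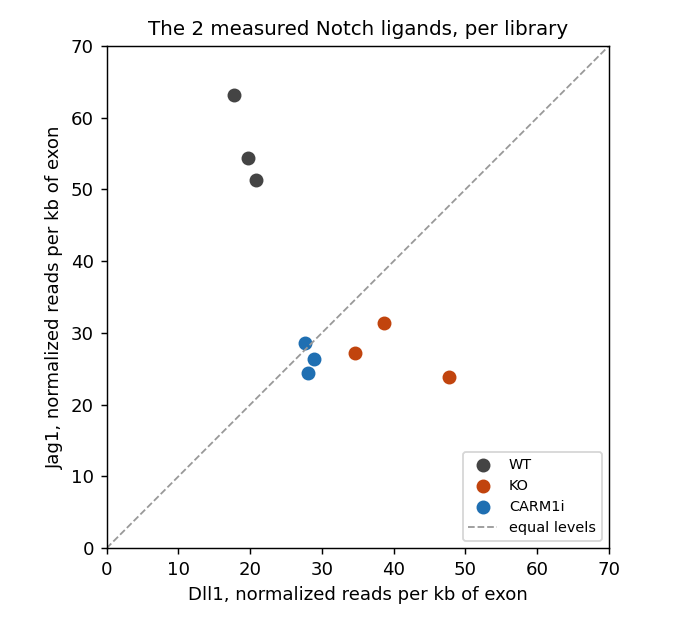
Jag1 (vertical axis) against Dll1 (horizontal axis), both in normalized reads per kb of exon, 1 point per library; the dashed line marks equal levels. WT libraries lie above the line at ratios of 2.46 to 3.56, KO libraries below it, and CARM1i libraries close to it at 0.87 to 1.04.

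Among the receptors, Notch2 made up most of the RNA. It took 97.18 to 97.38% of the summed reads per kb of Notch1, Notch2 and Notch3 in WT libraries, 96.89 to 96.97% in KO and 97.05 to 97.25% in CARM1i. Notch2 (ENSMUSG00000027878.11; chromosome 3, 98013527 to 98150361, plus strand) measured 6958, 6604 and 6956 normalized counts in WT, 8113, 8085 and 8236 in KO and 7222, 7130 and 7830 in CARM1i. Its groups did not overlap. It rose in KO by 0.25 ± 0.04 (limma adjusted p = 2e-05), or 19% in the mean, a call that held in each of the 20 alternative fits. Its annotation shares 541 exon bases with the gene model Gm42820 on the same strand, which averaged 37.4 normalized counts.

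Notch1 and Notch3 were scarce, and their calls were less secure. Notch1 (ENSMUSG00000026923.15; chromosome 2, 26457903 to 26516663, minus strand) measured 171.4, 178.1 and 165.7 normalized counts in WT, 199.9, 234.9 and 234.7 in KO and 162.0, 200.1 and 187.0 in CARM1i. The KO libraries lay above the WT libraries, by 0.37 ± 0.11 (limma adjusted p = 0.01269), and the CARM1i range spanned the WT range. The call ended without KO replicate 2 (adjusted p = 0.05427) or KO replicate 3 (adjusted p = 0.05588). Notch3 (ENSMUSG00000038146.7; chromosome 17, 32120820 to 32166852, minus strand), the receptor known from vascular smooth muscle and pericytes, measured 54.3, 33.3 and 46.0 in WT, 76.7, 61.5 and 64.9 in KO and 64.8, 48.6 and 59.85 in CARM1i. KO lay above WT by 0.615 ± 0.21 (limma adjusted p = 0.0255), and the call ended without WT replicate 2 (0.425, adjusted p = 0.1373), KO replicate 1 (adjusted p = 0.09813) or KO replicate 3 (adjusted p = 0.05087). Beside it, 3 of 7 smooth muscle and pericyte markers fell in KO in limma's test, Mcam to 37.5%, Cnn1 to 61.0% and Acta2 to 88.6% of WT. Cspg4 was called higher at 118.7%, and that call ended without WT replicate 2, without KO replicate 1 and without the intensity trend. Myh11 (129.6%), Tagln (99.05%) and Rgs5 (72.7%) were not called. With Cspg4, 57.1% of the 7 were called, beside 41.9% of all genes, 21.4% higher and 20.5% lower. The 7 markers, mostly Acta2 and Tagln, summed to 71052 to 73105 in WT, 63306 to 69646 in KO and 61282 to 62733 in CARM1i libraries, and their part in the Notch3 values was not tested. Exons of Notch1, Notch3, Dll1 and Nrarp overlap annotated genes on the other strand. Whether the counting used strand, which the kit marks, is not given in the sources used here, so reads of such pairs may be mixed.

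The target gene Hes1 encodes a basic helix-loop-helix repressor that many pathways besides Notch also induce (ENSMUSG00000022528.7; chromosome 16, 30064384 to 30067796, plus strand). It measured 1246, 1101 and 1235 normalized counts in WT, 1061, 985 and 1040 in KO and 1134, 1060 and 905 in CARM1i. KO libraries lay below the WT libraries, and CARM1i overlapped both. In KO it fell by 0.21 ± 0.07 on the log2 scale (limma adjusted p = 0.02218), to 86.1% of the WT mean. This call ended without WT replicate 1 (adjusted p = 0.09146), WT replicate 3 (adjusted p = 0.07459) or KO replicate 2 (adjusted p = 0.09481), in limma without the intensity trend (adjusted p = 0.1002) and with quantile normalization (adjusted p = 0.05442). Nrarp, which encodes a feedback inhibitor that destabilizes the cut receptor (ENSMUSG00000078202.3; chromosome 2, 25180758 to 25183339), had 6, 11 and 1 reads in the WT libraries, 1, 4 and 0 in KO and 5, 18 and 2 in CARM1i. At that depth a difference between groups was not detectable, since libraries of the same group differed as much.

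Per kb of exon, the order of levels in WT was Notch2 (634 ± 18.9), Hes1 (586 ± 39.7), Jag1 (56.3), Dll1 (19.4), Notch1 (12.1), Notch3 (5.50) and Nrarp (2.20). The ranges of neighbours in this order did not overlap except for Notch3 and Nrarp, although those of Notch2 and Hes1 nearly touched. These ranges cover the spread of the libraries only. The order also rests on the length used, which was all annotated exon bases of a gene. In KO the order was the same apart from Dll1 standing above Jag1, and no neighbours overlapped. In CARM1i Dll1 (28.2 ± 0.66) and Jag1 (26.5 ± 2.14) overlapped, as did Notch3 and Nrarp.

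The second comparison, CARM1i against WT, set cells given the inhibitor, with the gene intact, against untreated cells, with no group labelled as vehicle. It is the one that brought Jag1 forward, so its estimates are a description. Dll1 stood 0.535 ± 0.14 above WT on the log2 scale, Notch3 0.39 ± 0.21, Notch2 0.11 ± 0.04 and Notch1 0.09 ± 0.11 above, and Hes1 0.21 ± 0.07 below. The CARM1i and WT libraries did not overlap for 3 of the 6 genes, Jag1 included, beside 33.4% of all genes tested, and nothing is read from that count. Without CARM1i replicate 3 Notch2 stood 0.07 above WT and Hes1 at -0.12.

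The third comparison set the inhibitor against the deletion directly, with no WT library in the contrast. Jag1 apart, 2 of 5 genes passed limma's test, both lower in CARM1i, beside 23.6% of all genes, 12.1% higher and 11.5% lower. These 2 were also the genes whose groups did not overlap, beside 36.9% of all genes. Dll1 was lower in CARM1i than in KO by 0.50 ± 0.14 on the log2 scale (adjusted p = 0.01513), with 3 of 3 CARM1i libraries below the KO libraries. Without KO replicate 2, the highest Dll1 library, the difference was -0.37 and its call ended (adjusted p = 0.1015). Notch2 was lower by 0.14 ± 0.04 (adjusted p = 0.008743), and its call ended without CARM1i replicate 2 (adjusted p = 0.05367) and in limma without the trend (adjusted p = 0.07267). Notch1 (-0.29 ± 0.11, adjusted p = 0.07789) did not pass, but did without KO replicate 1 (adjusted p = 0.04662) and with quantile normalization (adjusted p = 0.04502). Notch3 (-0.23, 95% interval -0.67 to 0.21) and Hes1 (0.00, interval -0.15 to 0.15) did not pass. These intervals bound the difference and do not show that the 2 treatments act alike.

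**Figure D3:**
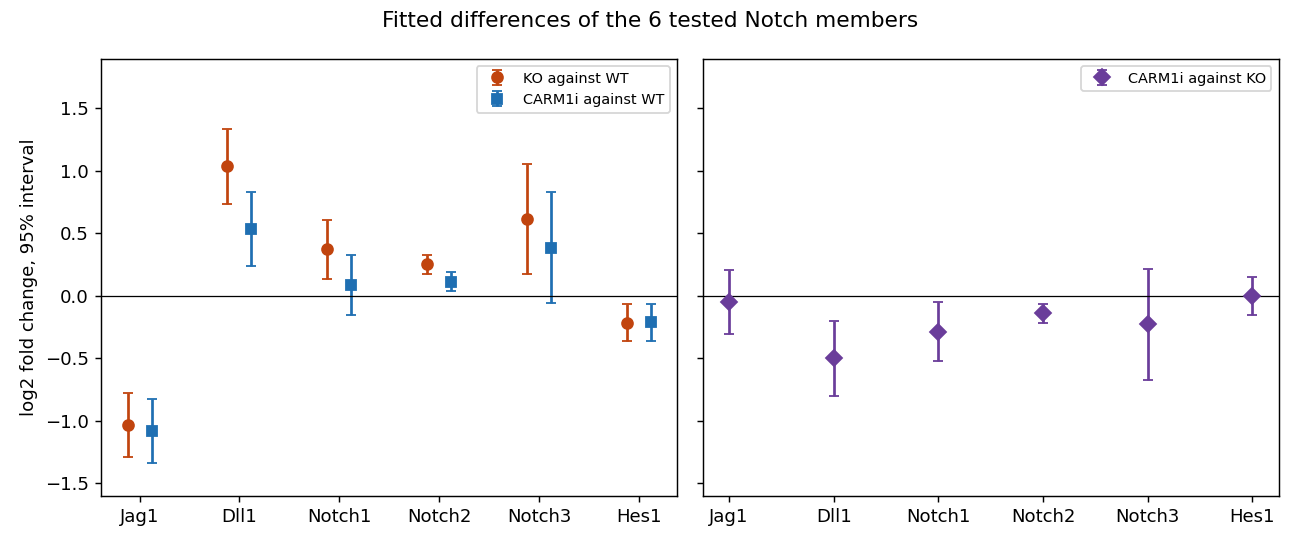
Fitted log2 fold changes (vertical axis) with 95% intervals for 6 Notch genes, KO and CARM1i against WT (left panel) and CARM1i against KO (right panel). Jag1 lies near -1 in both contrasts with WT and near 0 between the treatments, while Dll1 lies at 1.04 in KO, 0.535 in CARM1i and -0.50 between them. Jag1 was chosen by its lower level in CARM1i than in WT. Its intervals, and those of all genes in CARM1i against WT, are descriptions and not tests.

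The rest of the pathway was taken from 8 lists by role, with 78 genes that had a row and 77 that were tested. In KO, 21 rose and 14 fell (45.5% of the 77, beside 41.9% of all genes), and the median log2 fold change was 0.06, beside -0.004 over all genes. In CARM1i against WT, 6 rose and 4 fell (13.0%, beside 19.1% of all genes, 10.5% higher and 8.59% lower), with a median of -0.004, beside -0.005. In CARM1i against KO, 7 were higher and 16 lower (29.9%, beside 23.6%). In limma without the intensity trend these last 2 comparisons had 5 and 15 calls in place of 10 and 23. The share of all genes called in CARM1i against WT was also lower in that fit. Here and for the lists below, the shares of all genes are those of the fit with the trend on all 9 libraries. The receptor gene Notch4 was the only one not tested, at 2.86 to 11.1 normalized counts over the 9 libraries, and the ligand genes Dll3 and Dll4 were not analysed here.

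Genes for non-canonical ligands and matrix partners of the receptors split in KO, with 1 of 7 higher and 3 lower (57.1% called, beside 41.9% of all genes). Ccn3, a matricellular protein that binds Notch1, rose from 246.3 ± 43.6 to 404.9 ± 50.1 normalized counts (0.72 ± 0.12, limma adjusted p = 6.722e-05). Dlk2, a Delta-like membrane protein without the receptor-activating domain, fell from 308.5 ± 18.1 to 216.6 ± 30.5 (-0.52 ± 0.10, adjusted p = 0.0005787), and the microfibril gene Mfap5 fell by 0.37 ± 0.08. In CARM1i Ccn3 (255.1 ± 4.04) and Dlk2 (291.5 ± 16.5) stood near their WT levels and did not pass against WT. Against KO, 4 of the 7 were higher in CARM1i and 1 lower (71.4%, beside 23.6% of all genes), with Ccn3 lower by 0.66 ± 0.12 (adjusted p = 0.0004359) and Dlk2 higher by 0.43 ± 0.10 (adjusted p = 0.005044). With each library left out, the calls of Ccn3 and Dlk2 held in 9 of 9 fits. That of Mfap5, 1 of the 4, held in 5 of 9.

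Enzymes that add sugars to the receptors changed in 4 of 8 cases in KO, 2 in each direction, a share of 50% beside 41.9% of all genes. Gxylt2, a xylosyltransferase that extends O-glucose on Notch, rose from 2479 ± 33.9 to 3539 ± 123 (0.51 ± 0.04, limma adjusted p = 7.069e-09) and stood at 3010 ± 128 in CARM1i, where it also rose (0.28 ± 0.04, adjusted p = 5.745e-05). Eogt, which adds N-acetylglucosamine, fell from 1105 ± 23.7 to 960 ± 28.5 in KO (-0.20 ± 0.05) and to 877 ± 44.7 in CARM1i (-0.33 ± 0.05, adjusted p = 0.0001492). The calls of Gxylt2 and Eogt in KO and in CARM1i held in the 20 alternative fits. With each library left out, the KO call of Poglut1, another of the 4, held in 7 of 9 fits.

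Of 10 protease genes, 3 rose and 1 fell in KO (2 and 0 without WT replicate 1, KO replicate 2 or KO replicate 3), a share of 40.0% near the 41.9% of all genes. Psenen, the smallest gamma-secretase subunit, rose from 656 ± 28.2 to 849 ± 16.4 (0.37 ± 0.055, limma adjusted p = 2.542e-05). Among 15 ubiquitin ligase and endocytosis genes 4 rose and 1 fell in KO (2 and 1 without KO replicate 2), 33.3% beside 41.9% of all genes. Dtx3l, a Deltex-family ubiquitin ligase that is also interferon-inducible, rose from 4366 ± 129 to 6525 ± 282 (0.58 ± 0.06), the kinase gene Aak1 rose by 0.245 ± 0.05 and Epn2, an epsin of ligand endocytosis, fell by 0.275 ± 0.05.

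In the nucleus, Rbpj, the DNA-binding partner of the receptors, rose in KO from 14261 ± 485 to 15926 ± 182 normalized counts (0.16 ± 0.04, limma adjusted p = 0.002646), and it was lower in CARM1i than in KO by 0.20 ± 0.04 (adjusted p = 0.0007291). Of 9 genes of the nuclear complex 2 rose and 1 fell in KO (1 and 0 without WT replicate 1 or WT replicate 2), 33.3% beside 41.9% of all genes. The acetyltransferase genes Ep300 (0.09 ± 0.06) and Crebbp (0.08 ± 0.05) did not pass. Of 15 corepressor genes 3 rose and 3 fell in KO (1 and 2 without WT replicate 2, 2 and 1 without WT replicate 3 or without the intensity trend), 40.0% beside the same share. The Groucho-related gene Aes rose by 0.24 ± 0.04 and the deacetylase gene Hdac2 fell by 0.225 ± 0.04.

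Other HES-related genes and genes described as Notch targets rose in 6 of 13 cases in KO and fell in 3 (4 and 1 without the intensity trend), 69.2% beside 41.9% of all genes. Bhlhe40 and Bhlhe41, a pair of basic helix-loop-helix repressors related to the HES family, rose from 1588 ± 19.4 to 2459 ± 167 (0.63 ± 0.045, limma adjusted p = 2.821e-09) and from 92.1 ± 3.88 to 197.8 ± 27.7 (1.085 ± 0.14, adjusted p = 5.53e-06). In CARM1i Bhlhe40 rose by 0.28 ± 0.045 and Bhlhe41 stood at 117.2 ± 14.8 (0.34 ± 0.14, adjusted p = 0.1083). The cell cycle inhibitor gene Cdkn1a, also a p53 target, rose in KO by 0.35 ± 0.045 (adjusted p = 6.232e-06) and stood at -0.04 ± 0.045 in CARM1i (adjusted p = 0.6055). In CARM1i against KO, 7 of these 13 were lower and 2 higher (69.2%, beside 23.6% of all genes), and without the intensity trend 5 were lower and 0 higher. The shares of all genes given here belong to the fit with the trend, so the counts without it cannot be set against them.

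**Figure D4:**
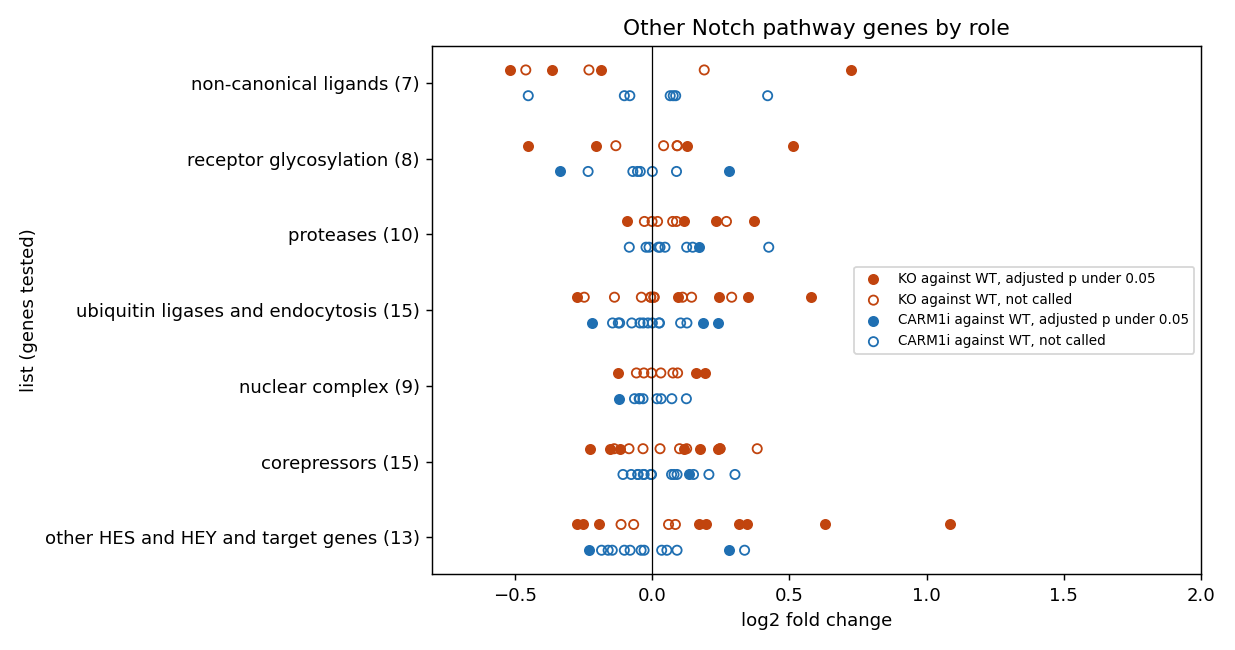
Log2 fold changes (horizontal axis) of 77 other Notch pathway genes in KO and CARM1i against WT, 1 row per role with the number of genes tested; filled points passed an adjusted p of 0.05. Most genes lie within 0.5 of 0, and the largest rise is that of Bhlhe41 in KO.

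The 4 genes whose pattern over the 9 libraries came closest to that of Jag1, among 10478 candidates with a mean of at least 100, were Cxcl1, Txnip, Has2 and Tll1. Likeness was the root mean square difference of log2(value + 1), each gene centred on its own mean, and it was 0.19, 0.20, 0.20 and 0.22, beside a median of 0.52 over all candidates. Has2, a hyaluronan synthase gene, had nearly the same mean level in both treatments, as Jag1 did. It measured 1065.5, 959 and 1048 normalized counts in WT, 576, 567.5 and 593 in KO and 530.5, 563 and 640 in CARM1i. The chemokine gene Cxcl1 stood at 1062 in WT, 529 in KO and 647 in CARM1i on average. The gene of the procollagen-processing protease Tll1 stood at 3585, 1655 and 2020. The arrestin-family gene Txnip stood at 1811, 802 and 976. In Cxcl1, Tll1 and Txnip the CARM1i mean lay above the KO mean, while in Jag1 it was 96.4% of it. For Cxcl1 the libraries of the 2 groups overlapped. These 4 genes were picked by their likeness to Jag1 over the same 9 libraries. Their lower levels in both treatments follow from that choice, and their differences are given without a test.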

How the data were processed

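RNA was measured in 9 poly(A) libraries made with a stranded mRNA kit, per the labels. Alignment and counting tools are listed only by name in the submitters' processing notes: build mm10, DESeq 1.18.0, HTSeq 0.6.0 and TopHat2 2.0.10. The authors deposited read counts divided by a size factor, a normalized signal per gene and library; dividing by the step of 1 read gave a whole number for 100% of them (tolerance 1e-06 reads), which returned the reads. Gene IDs were matched without version to GENCODE M21 (16413 of 16428). Genes with a mean value of at least 10 were tested with limma 3.58.1 (R 4.3.3, intensity trend) on log2(value + 1), all 9 libraries in 1 fit, with Benjamini-Hochberg adjustment over 14560 genes; fold changes on that scale understate those of low genes. The fit was tested on simulated data in which few genes changed, by 1.5-fold or more. That test does not cover smaller differences, such as those of Notch1, Notch2 and Hes1 and of Dll1 in both comparisons with CARM1i. Many other genes named here also differed by less. Alternatives were other filters, pseudocounts, scalings and fits, DESeq2 1.42.0 and edgeR 4.0.16 run on those reads, a replicate block and each library left out. edgeR and DESeq2 called the same number of Notch members as limma in each comparison.

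The members, the lists and the rule for named genes were chosen with earlier results of these data known. The rule takes the members, up to 3 genes per list and comparison with WT by smallest adjusted p past 0.05, the 4 genes most like Jag1, and Carm1; some that it picks are not used here. Ep300, Crebbp and the markers were named for their role, outside the rule.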

Additional observations from a re-analysis of the deposited data

How the results depend on the processing

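No Notch gene changed direction in a called comparison under the alternatives. The counts of Notch members past an adjusted p of 0.05 given here include Jag1, by which the group was chosen, and are descriptions. In KO against WT the count was 6, beside 41.9% of all genes, and ran from 4 to 6 with each library left out. In CARM1i against WT, the comparison that chose Jag1, it was 4, beside 19.1% of all genes; it was 2 in limma without the intensity trend, 2 with only the compared groups in the fit, and 2 to 4 with each library left out (2 without CARM1i replicate 3, WT replicate 1 or any 1 KO replicate). In CARM1i against KO it was 2, without Jag1, beside 23.6%; it was 1 without the trend and 1 to 3 with each library left out. Of the 77 other pathway genes, 35, 10 and 23 were called in the 3 comparisons; without the trend the later 2 counts were 5 and 15, and with each library left out the ranges were 25 to 38, 7 to 11 and 16 to 25. Without the trend the share of all genes called in CARM1i against WT was 12.3%, beside 19.1%. Same-numbered libraries did not deviate together (correlation across genes -0.09 to 0.03), so the numbers are names only; with the replicate block the counts of members called were 6, 4 and 2, and those of other pathway genes 35, 10 and 22. Rows with few reads limit Nrarp, Notch4 and Notch3.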
